A study of Rattus norvegicus with 8 samples.

Results

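Lipc, Lcat, Lpl, Pltp, Scarb1, Lrp1, Abca1 and Angptl4 were followed in rat liver as genes for the enzymes, transfer protein, receptors, exporter and regulator that handle plasma lipoproteins. Abhd2 was grouped with them as a hydrolase with the fold that lipases share, and no role in handling plasma lipoproteins is claimed for it here. All array probes whose accession maps through RefSeq to one of these 9 symbols were taken, which gave 10 probes of the 30367 on the array, 2 for Scarb1 and 1 for each other gene. Every one of the 10 probes was among the 16952 that passed the filter on dim probes, and the 9 genes stood among 15204 genes and unnamed features tested. The liver messenger RNA came from 8 adult male Sprague-Dawley rats. The 4 control rats had a control diet. The 4 PFOS rats had potassium perfluorooctanesulfonate (PFOS), a surfactant with a fluorinated chain, at 50 mg per kg of diet. Both groups ate freely for 28 days. The food eaten by each animal, and so its dose, is not given in the sources used here. Each rat had its own two-colour array, with Cy5 on the liver RNA and Cy3 on a universal rat reference RNA that was common to all arrays. The series is titled as a study of hepatic microRNA and thyroid hormones, and setting PFOS against control shows which transcripts of these genes differ after the exposure.

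Plasma lipoproteins carry triglyceride and cholesterol between liver, gut and other tissues. Lipases bound to the vessel wall release fatty acids from their triglyceride, receptors on hepatocytes take up what remains, and high-density lipoprotein (HDL) brings cholesterol back to the liver. Hepatocytes make and secrete hepatic lipase (Lipc) and lecithin-cholesterol acyltransferase (Lcat), which esterifies the cholesterol of HDL. Lipoprotein lipase (Lpl) is made mainly in fat, muscle and heart and is low in adult liver. Abhd2 encodes a membrane-bound serine hydrolase with an alpha/beta-hydrolase fold, the fold that lipases share.

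The promoters of Abhd2, Lipc and Lcat are shown because these genes were lower in PFOS in at least 1 of the measures described here. Each runs over the 250 bases before the gene's start, 5′ to 3′ on the gene's strand, from RefSeq on GRCr8. Abhd2 is at chr1:142626498-142626747 (plus strand), Lipc at chr8:80516286-80516535 (minus strand) and Lcat at chr19:50748065-50748314 (minus strand). Capitals mark matches to the motifs searched.
Abhd2: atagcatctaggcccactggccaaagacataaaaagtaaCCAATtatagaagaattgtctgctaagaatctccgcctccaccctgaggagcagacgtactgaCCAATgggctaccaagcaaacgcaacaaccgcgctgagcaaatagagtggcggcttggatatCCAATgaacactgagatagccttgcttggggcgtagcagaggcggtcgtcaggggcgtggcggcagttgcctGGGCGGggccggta
Lipc: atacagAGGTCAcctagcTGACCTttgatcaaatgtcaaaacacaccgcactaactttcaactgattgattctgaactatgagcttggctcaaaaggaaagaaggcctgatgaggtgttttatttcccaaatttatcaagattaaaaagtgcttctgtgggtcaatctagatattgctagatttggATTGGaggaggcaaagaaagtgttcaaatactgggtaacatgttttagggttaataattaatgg
Lcat: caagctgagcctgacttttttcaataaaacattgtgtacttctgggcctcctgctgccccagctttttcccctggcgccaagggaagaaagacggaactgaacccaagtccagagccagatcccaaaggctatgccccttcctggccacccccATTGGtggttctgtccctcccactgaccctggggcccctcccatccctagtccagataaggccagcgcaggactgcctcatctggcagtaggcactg
The Abhd2 promoter had 3 CCAAT boxes, which begin at positions -211, -148 and -86 from the gene's start, and 1 GC box (GGGCGG). The Lipc promoter had a pair of nuclear receptor half-sites (AGGTCA), 1 on each strand, and a CCAAT box on the other strand (ATTGG as printed). In the Lcat promoter the 1 match was a CCAAT box, again on the other strand. Of 33469 RefSeq rat promoters of this length, 34.017% held CCAAT at least 1 time, 30.467% GGGCGG and 14.064% AGGTCA, on either strand. The shares with 3 CCAAT boxes or with a pair of half-sites were not counted. The Lipc window was 37.2% G and C and held 1 CG step, against 54.4% and 13 steps for Abhd2, 57.6% and 3 steps for Lcat, and medians of 51.2% and 5 steps over all promoters. None of the 7 members found in the promoter table (all but Scarb1 and Lpl) held an exact match to AGGTCANAGGTCA or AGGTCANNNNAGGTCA. These are strict forms of the spaced repeats bound by PPAR and HNF4 and by LXR, in that order. They occurred in 0.051% and 0.003% of all promoters, so a match was unlikely for any gene. Looser forms were not searched, and a missing match does not show that a promoter lacks such a repeat. A match is a description of the letters and not a site, and the windows are too short to say anything of the factors.

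Across the 8 arrays the Cy5 medians over all spots except the array's built-in control spots were 116 to 160 units. The median local background was 71 to 75 units, and 50.4% to 59.1% of the probes were well above background. The first slide row, which carried control 1, control 2, PFOS 1 and PFOS 2, had medians of 154.5 to 160. The second row, with the other arrays of both groups, had medians of 116 to 138. All arrays were on 1 slide with 1 scan date. The liver showed its own markers. All 8 hepatocyte markers, such as albumin, were detected. Of the fat markers Cfd and Retn were tested, while Adipoq and Lep were not above background on enough arrays. Of the muscle markers Acta1 and Mb were tested, while Ckm, Myh4 and Tnnt3 were not above background on enough arrays.

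Of the 9 genes, Abhd2 and Lipc fell in the PFOS livers, by 2.79-fold and 1.41-fold, and no gene passed the test as higher. The measure was the log2 ratio of liver signal (Cy5) over reference signal (Cy3), tested with limma with a Benjamini-Hochberg adjusted p under 0.05. Over all genes and features 3.97% passed this test, 2.14% as lower and 1.83% as higher in PFOS. In the Cy5 channel alone, which shares its signal with the ratio and is no independent measurement, Abhd2, Lipc and Lcat were lower, where 4.69% of all features passed, 2.47% as lower and 2.22% as higher. The median change of the 9 genes was -0.22 in the ratio and -0.23 in Cy5, against -0.01 and -0.01 over all features. In both measures 6 of the 9 changes lay below 0, as did 52.3% and 52.4% of all. The median standard error of a change was 0.14 for these genes in the ratio, against 0.11 over all features, and the number of arrays limits the precision.

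**Figure D1:**
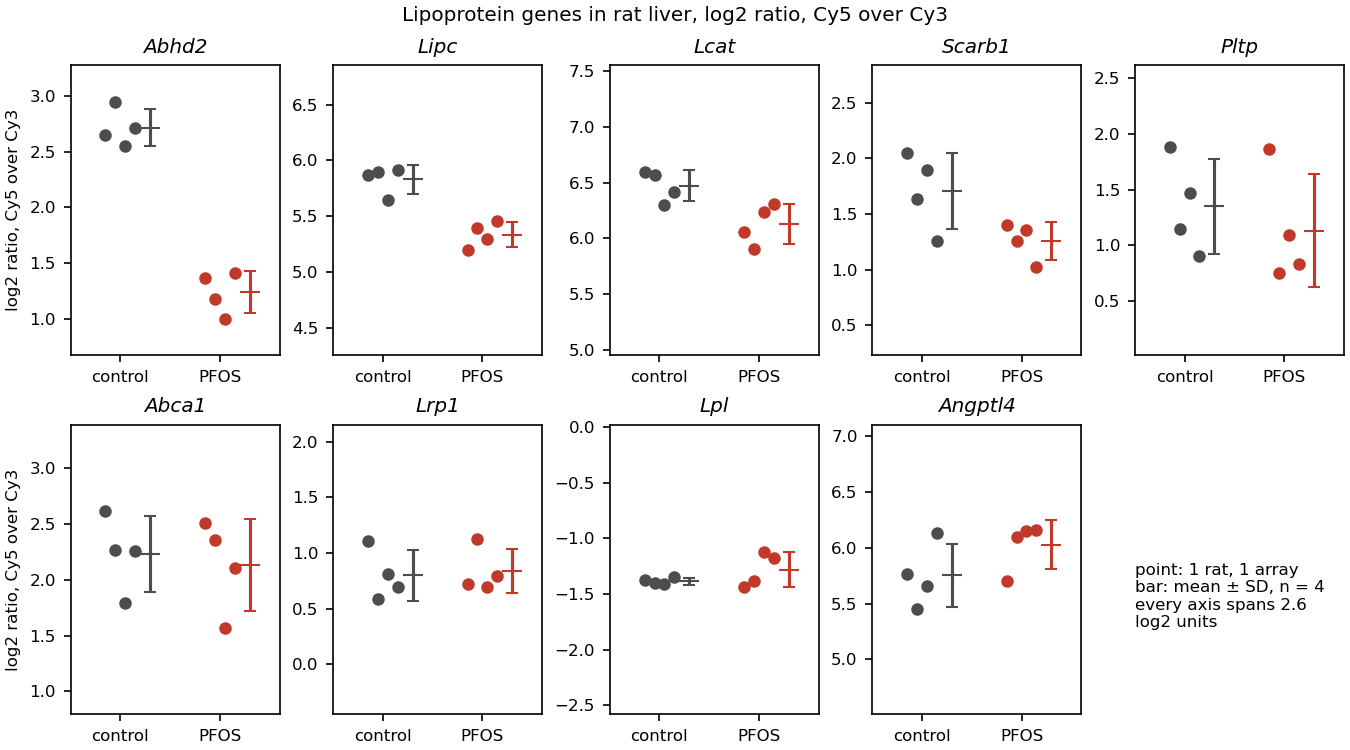
Log2 ratio of Cy5 over Cy3 for each of the 9 genes; a point is 1 rat on 1 array, the bar beside it gives the mean ± SD (n = 4), and every vertical axis spans the same length in log2 units. The control and PFOS points do not overlap for Abhd2 and Lipc and overlap for the other 7 genes.

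Abhd2 had the largest change of the 9. Its Cy5 brightness before any correction was 430, 521.5, 358.8 and 312.8 units in the control livers and 207.2, 198.5, 134.2 and 168.2 units in the PFOS livers, over a local background of 69.5 to 74.5 units. All PFOS arrays were dimmer than all control arrays, and the probe was well above background on each. The log2 ratios were 2.65, 2.95, 2.55 and 2.71 in control 1 to 4 and 1.36, 1.18, 1.00 and 1.41 in PFOS 1 to 4. The groups stood far apart, with no control value near the highest PFOS value. The mean went from 2.72 ± 0.17 (SD, n = 4) to 1.24 ± 0.19 (SD, n = 4), a log2 change of -1.48 (SE 0.12, 95% confidence interval -1.75 to -1.21, limma adjusted p = 0.000455). By size this was the 39th lowest of the 15204 changes, and by p the 16th of all. In Cy5 alone the change was smaller, -1.12 (SE 0.095, limma adjusted p = 0.000322), and the reference channel moved by -0.04 (SE 0.036). Among the processing alternatives the ratio's change ran from -1.58 to -1.11 and kept its call in each. The Cy5 change ran from -1.63 (processed signals) to -1.10 (no background subtraction), was -1.41 with a normexp offset of 0, and also kept its call. Within the first slide row the ratio's change was -1.53 (limma adjusted p = 0.0302) and within the second row -1.43 (limma adjusted p = 0.106), with 2 arrays of each group in a row.

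Hepatic lipase, the enzyme of the liver's sinusoids that hydrolyses triglyceride and phospholipid of remnant particles and HDL, had a smaller change with little spread. The log2 ratios of Lipc were 5.87, 5.90, 5.64 and 5.91 in the control livers and 5.20, 5.39, 5.29 and 5.46 in the PFOS livers. Every PFOS value lay below every control value, with control 3 the lowest of its group. The mean fell from 5.83 ± 0.13 (SD, n = 4) to 5.34 ± 0.11 (SD, n = 4), a log2 change of -0.50 (SE 0.094, 95% confidence interval -0.71 to -0.28, limma adjusted p = 0.0219). The signal was far from background, at 5884.5 to 17651.2 units over 71.5 to 78. Cy5 alone gave -0.56 (SE 0.11, limma adjusted p = 0.0172), a 1.48-fold fall, with a reference change of -0.03. The groups did not overlap in the ratio for Abhd2 and Lipc, where PFOS lay wholly below control for 6.89% of all features (12.8% did not overlap in either direction).
The call on Lipc was close to the threshold. In the ratio it was lost with the scanner software's processed signals (-0.43, limma adjusted p = 0.0741), with median centring (-0.49, 0.225) and with scaling between arrays, where the change was also the smallest (-0.31, 0.488). It was lost too when PFOS 1, PFOS 3 or any control array but control 3 was left out, at limma adjusted p = 0.0572 to 0.0638, and within each slide row (-0.59 and -0.40). The Cy5 call was lost with processed signals (-0.51, limma adjusted p = 0.0585) and without PFOS 1 (-0.53, 0.0566), and within each slide row (-0.59 and -0.54).

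Lcat, which transfers a fatty acid to cholesterol on HDL particles with apolipoprotein A-I as its activator, passed the test in Cy5 and not in the ratio. Its log2 Cy5 signals were 14.95, 14.87, 14.69 and 14.86 in the control livers and 14.26, 14.26, 14.47 and 14.62 in the PFOS livers. All PFOS values were below all control values, with PFOS 4 and control 3 nearest to each other. With Abhd2 and Lipc this made 3 genes whose PFOS values lay wholly below control in Cy5, as for 7.33% of all features (13.4% in either direction). The Cy5 change was -0.45 (SE 0.10, 95% confidence interval -0.67 to -0.22, limma adjusted p = 0.0375), a 1.36-fold fall. The log2 ratios were 6.60, 6.57, 6.30 and 6.42 in the control and 6.06, 5.91, 6.24 and 6.31 in the PFOS livers. There the groups touched, since PFOS 4 was above control 3, and the change of -0.34 (SE 0.11) missed the threshold (limma adjusted p = 0.131). It was -0.13 with scaling between arrays, -0.60 within the first slide row and -0.09 within the second.
The arrays of the second slide row were the ones that met. Within the first row the Cy5 change was -0.66 (limma adjusted p = 0.0989) and within the second row -0.24 (limma adjusted p = 0.513). The Cy5 call was also lost with a normexp offset of 0, processed signals, scaling to the 75th percentile, loess with Aquantile, or slide row or column as a block (limma adjusted p = 0.0512 to 0.116), and when any array but control 3 or PFOS 4 was left out (-0.47 to -0.40).

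**Figure D2:**
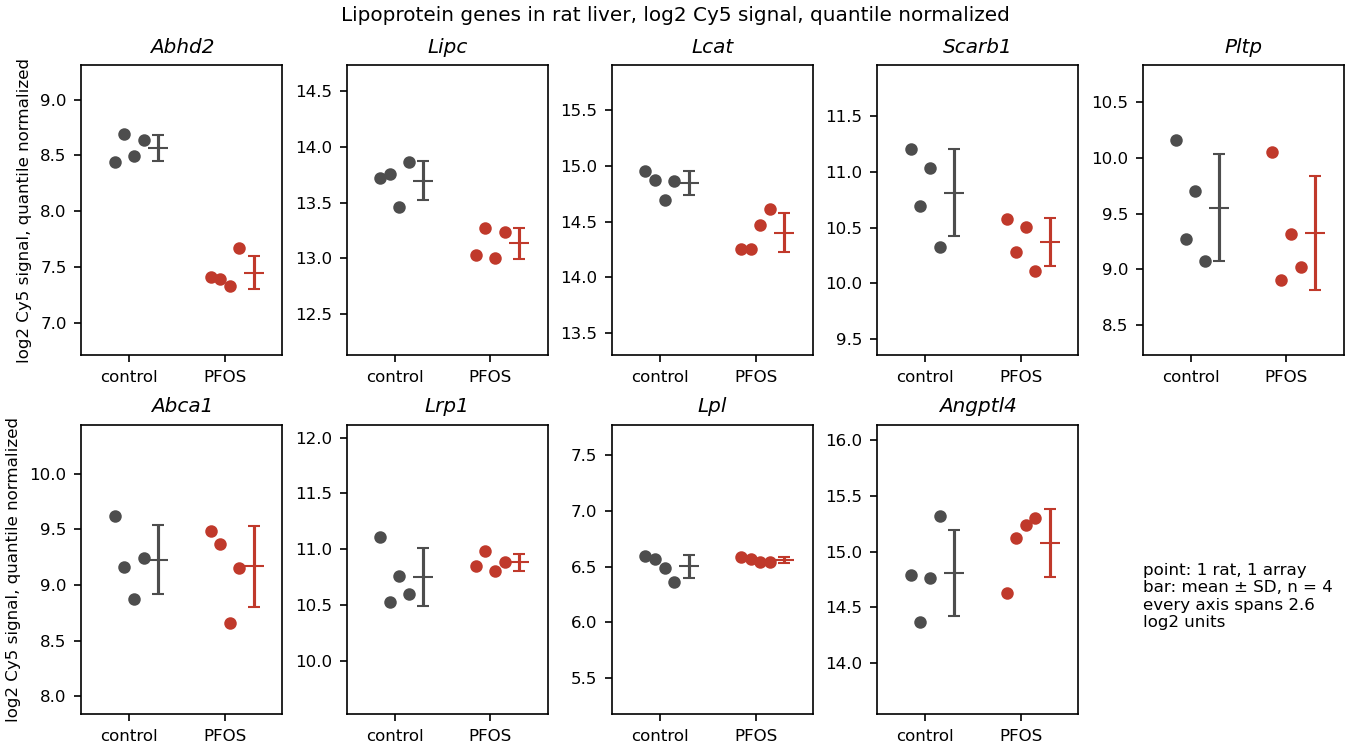
Log2 Cy5 signal alone, quantile normalized over the 8 arrays, for each of the 9 genes; a point is 1 rat and the bar gives the mean ± SD (n = 4). The groups do not overlap for Abhd2, Lipc and Lcat, and Lcat is separated by the least of these.

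Lipoprotein lipase, which acts on triglyceride-rich particles in fat and muscle, was near the limit of detection in these livers. Its Cy5 brightness was 84.5 to 110 units over a local background of 68.4 to 74.1 units, as the mean of 10 spots an array, and it was well above background on 3 of 4 control and 2 of 4 PFOS arrays. The log2 ratios of Lpl were -1.38, -1.40, -1.41 and -1.35 in the control livers and -1.44, -1.39, -1.12 and -1.18 in the PFOS livers. PFOS 3 and PFOS 4, both on the dimmer slide row and not well above background, were the highest. The change was 0.11 (SE 0.09, 95% confidence interval -0.10 to 0.31, limma adjusted p = 0.556), and over all alternatives it ran from -0.02 to 0.23 without a call. At a signal so near background a change in the RNA would appear smaller than it is.

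Pltp, the phospholipid transfer protein that remodels HDL, varied more among rats of 1 group than any other of the 9. Its log2 ratios ran 1.88, 1.15, 1.47 and 0.90 in the control and 1.86, 0.75, 1.09 and 0.83 in the PFOS livers. Control 1 and PFOS 1 were nearly as high as each other and well above the rest, and the groups overlapped over nearly their whole range. The change was -0.22 (SE 0.27, 95% confidence interval -0.84 to 0.40, limma adjusted p = 0.705), and in Cy5 -0.23 (SE 0.29, 0.701). Single arrays moved its size. The ratio change was -0.04 without control 1, -0.09 without PFOS 2, -0.12 without PFOS 4, -0.37 without control 4 and -0.46 without PFOS 1, and the Cy5 change ran from -0.03 (without control 1) to -0.47 (without PFOS 1). These intervals hold both a fall larger than that of Lipc and a rise.

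Scarb1 encodes SR-BI, the receptor through which hepatocytes take cholesteryl ester from HDL. Its brighter probe had log2 ratios of 2.05, 1.64, 1.89 and 1.26 in the control and 1.40, 1.25, 1.36 and 1.02 in the PFOS livers. Control 4 was within the PFOS range, and the other 3 control values were above it. The change of -0.45 (SE 0.17, 95% confidence interval -0.82 to -0.07, limma adjusted p = 0.18) was nearly that of Lipc in size with a wider error. It did not pass in Cy5 either (-0.44, SE 0.19, limma adjusted p = 0.217). With an array left out, the ratio change ran from -0.60 (without control 4, limma adjusted p = 0.0557) to -0.34 (without control 1, 0.335). The Cy5 change ran from -0.61 (without control 4, limma adjusted p = 0.0804) to -0.32 (without control 1, 0.389), again without a call.
The second Scarb1 probe, read from 1 spot an array against 2 for the brighter probe, changed less. Its log2 ratios were 1.92, 1.77, 1.88 and 1.33 in the control and 1.69, 1.53, 1.74 and 1.44 in the PFOS livers, and the change was -0.12 (SE 0.14, limma adjusted p = 0.667) over all 16952 probes. In Cy5 it was -0.23 (SE 0.14, limma adjusted p = 0.382). Both probes had control 4 as their lowest control value. The difference between the probes was not tested. Their mean changed by -0.29 (limma adjusted p = 0.327).

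Lrp1, the large receptor that clears chylomicron remnants and protease complexes beside the LDL receptor, did not pass the test. The log2 ratios were 1.11, 0.58, 0.81 and 0.70 in the control and 0.72, 1.12, 0.70 and 0.80 in the PFOS livers. The group means were 0.80 ± 0.23 (SD, n = 4) and 0.83 ± 0.20 (SD, n = 4), with 1 high liver in each, control 1 and PFOS 2. The change was 0.03 (95% confidence interval -0.27 to 0.34, limma adjusted p = 0.917), and its sign turned without control 2 (-0.04) or PFOS 2 (-0.06).

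Abca1, which exports cholesterol and phospholipid to lipid-poor apolipoprotein A-I and so starts an HDL particle, did not pass the test either. The log2 ratios were 2.62, 2.27, 1.79 and 2.26 in the control and 2.51, 2.36, 1.57 and 2.10 in the PFOS livers. Both groups spanned nearly the same range, with control 3 and PFOS 3 lowest. The change was -0.10 (SE 0.22, 95% confidence interval -0.60 to 0.41, limma adjusted p = 0.847), and its sign turned without control 1 (0.03) or PFOS 3 (0.09).

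Angptl4, a secreted inhibitor of lipoprotein lipase and a known target of the fatty acid receptor PPARA, did not pass the test. Its log2 ratios were 5.77, 5.46, 5.66 and 6.13 in the control and 5.71, 6.10, 6.15 and 6.16 in the PFOS livers. PFOS 2, PFOS 3 and PFOS 4 lay close together near the highest control value, while PFOS 1 was within the range of the other controls. The change was 0.28 (SE 0.16, 95% confidence interval -0.08 to 0.63, limma adjusted p = 0.362), and in Cy5 0.27 (SE 0.21, limma adjusted p = 0.501). Over the processing alternatives the ratio change ran from 0.20 to 0.47 without a call. With an array left out it ran from 0.18 (without control 2) to 0.40 (without control 4), and the Cy5 change from 0.12 (without control 2) to 0.44 (without control 4), again without a call.

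**Figure D3:**
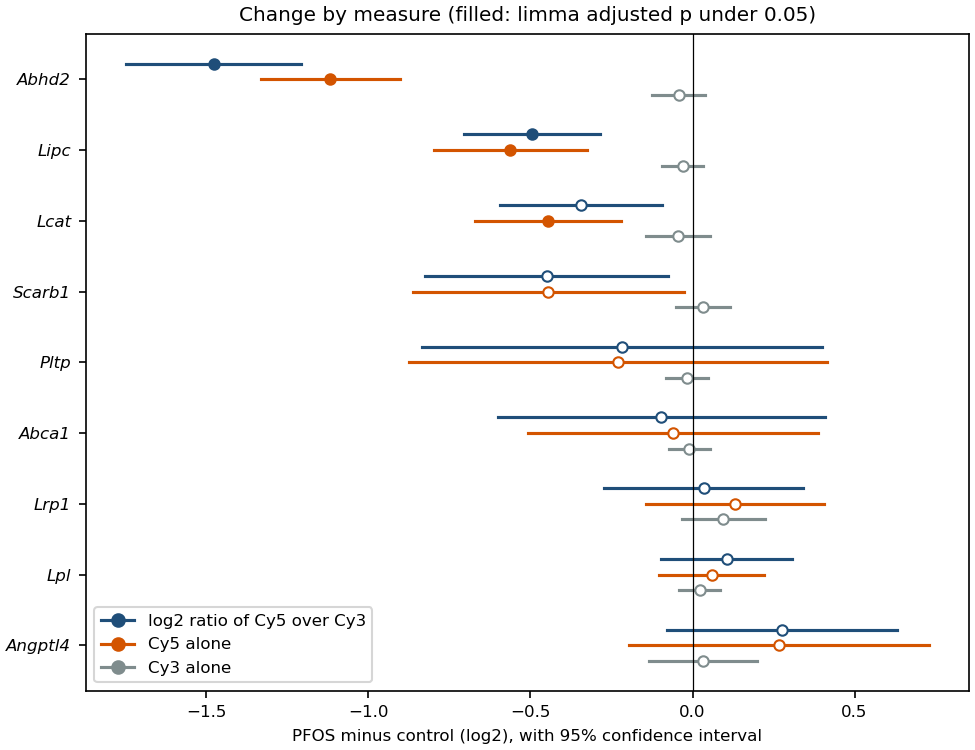
Log2 change, PFOS minus control, of the 9 genes with its 95% confidence interval from limma (n = 4 against 4), for the ratio, Cy5 alone and the reference channel Cy3 alone; filled points have an adjusted p under 0.05. Abhd2 and Lipc are filled in the ratio and in Cy5, Lcat in Cy5 alone, and no Cy3 point is filled.

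The reference RNA was the same on every array, and its signal for the 9 genes was read by diet too. The Cy3 changes ran from -0.04 to 0.10, all at a limma adjusted p of 0.999, where 0.0789% of all features passed. For some other genes of the pathway this was not so, and their ratio and Cy5 changes part.

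The proteins around the lipases were described from lists. Of 9 tested genes for intravascular lipases and their cofactors, 2 were lower, none was higher and 7 did not pass in the ratio, with a median change of -0.23. Apoc2, the activator of lipoprotein lipase, fell by 0.38 (SE 0.081, limma adjusted p = 0.035), and Sel1l, which helps lipoprotein lipase leave the endoplasmic reticulum, by 0.42 (SE 0.094, limma adjusted p = 0.0423). In Cy5, Apoc2 fell by 0.41 (limma adjusted p = 0.033) and Apoc4 by 0.55 (limma adjusted p = 0.0495), while Sel1l did not pass (-0.35, 0.0634). All of these calls were lost on leaving out most single arrays, within each slide row, with a normexp offset of 0, with processed signals and with the slide column fitted as a block. Scaling between arrays took the ratio change of Apoc2 to -0.11 (limma adjusted p = 0.872), and the slide row as a block ended the calls on Sel1l (0.0536) and Apoc4 (0.0698). Without control 1, for example, neither Apoc2 nor Sel1l passed in the ratio. None of the 3 tested angiopoietin-like genes besides Angptl4 passed. Angptl6 changed by -0.29 (SE 0.11) and Angptl2 by 0.22 (SE 0.14).

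Among 15 tested lipoprotein receptors and their regulators, 1 was higher, 1 was lower and 13 did not pass in the ratio, with a median of -0.08. Lrp5, a relative of Lrp1 and co-receptor of Wnt signals, fell by 1.01 (SE 0.13, limma adjusted p = 0.00376). Sorl1, a sorting receptor of the same family, rose by 1.10 (SE 0.14, limma adjusted p = 0.00392). Both also passed in Cy5 (-1.05 and 1.09), and with each array left out in turn, and did not pass within the second slide row (-0.85 and 0.87 in the ratio). The size for Sorl1 rests on its brightest probe, since the mean of its probes rose by 0.75 in the ratio (limma adjusted p = 0.00928) and 0.69 in Cy5 (limma adjusted p = 0.00753). Cd36, a fatty acid and lipoprotein receptor, had a change of 1.55 (SE 0.37, limma adjusted p = 0.0515) that missed the threshold, and passed in Cy5 (1.56, limma adjusted p = 0.0453). Its Cy5 call was lost when any array but control 2 or PFOS 3 was left out and within each slide row. It was also lost with a normexp offset of 0, processed signals, scaling to the 75th percentile, loess with Aquantile, a looser or no filter on dim probes, or trend and robust moderation (limma adjusted p = 0.0514 to 0.0715).

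No tested exporter of sterol or phospholipid, of 7 besides Abca1, passed in either measure, though all 7 changes lay below 0 in the ratio, with a median of -0.21. Npc2, a lysosomal cholesterol carrier, was nearest at -0.49 (SE 0.12, limma adjusted p = 0.0559), followed by its partner Npc1 at -0.52 (SE 0.18, limma adjusted p = 0.161). The 7 tested apolipoproteins and assembly proteins of HDL and VLDL showed how the measures can part. None passed in the ratio, and 3 were lower in Cy5. Apoa1, the main protein of HDL and the activator of Lcat, changed by -0.38 in the ratio (limma adjusted p = 0.116) and by -1.80 in Cy5 (SE 0.12, limma adjusted p = 0.000145), with a Cy3 change of -1.38. Apoa4 had -0.28, -1.02 and -0.71 in the same order, and Apom, an HDL apolipoprotein that carries sphingosine 1-phosphate, -0.20, -0.53 and -0.26. The Cy5 call on Apom was lost with scaling to the 75th percentile, loess with Aquantile or slide column as a block, and when any array but control 2 or PFOS 3 was left out, and neither Apoa4 nor Apom passed in Cy5 within a slide row. The part of the Cy3 movement in these results was not tested.

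Other genes of the family of Abhd2 were read in the same way. Of 15 other tested ABHD hydrolases, 1 was lower and 14 did not pass, in the ratio and in Cy5, and their median change was 0.06. The lower one was Abhd8, at -0.94 (SE 0.13, limma adjusted p = 0.00596), and it passed with each array left out in turn, though within neither slide row (-0.92 and -0.97). Abhd6, a monoacylglycerol hydrolase, changed by -0.26 (SE 0.073, limma adjusted p = 0.0871) and Abhd4, of N-acylethanolamine synthesis, by 0.28 (SE 0.094, limma adjusted p = 0.138).

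**Figure D4:**
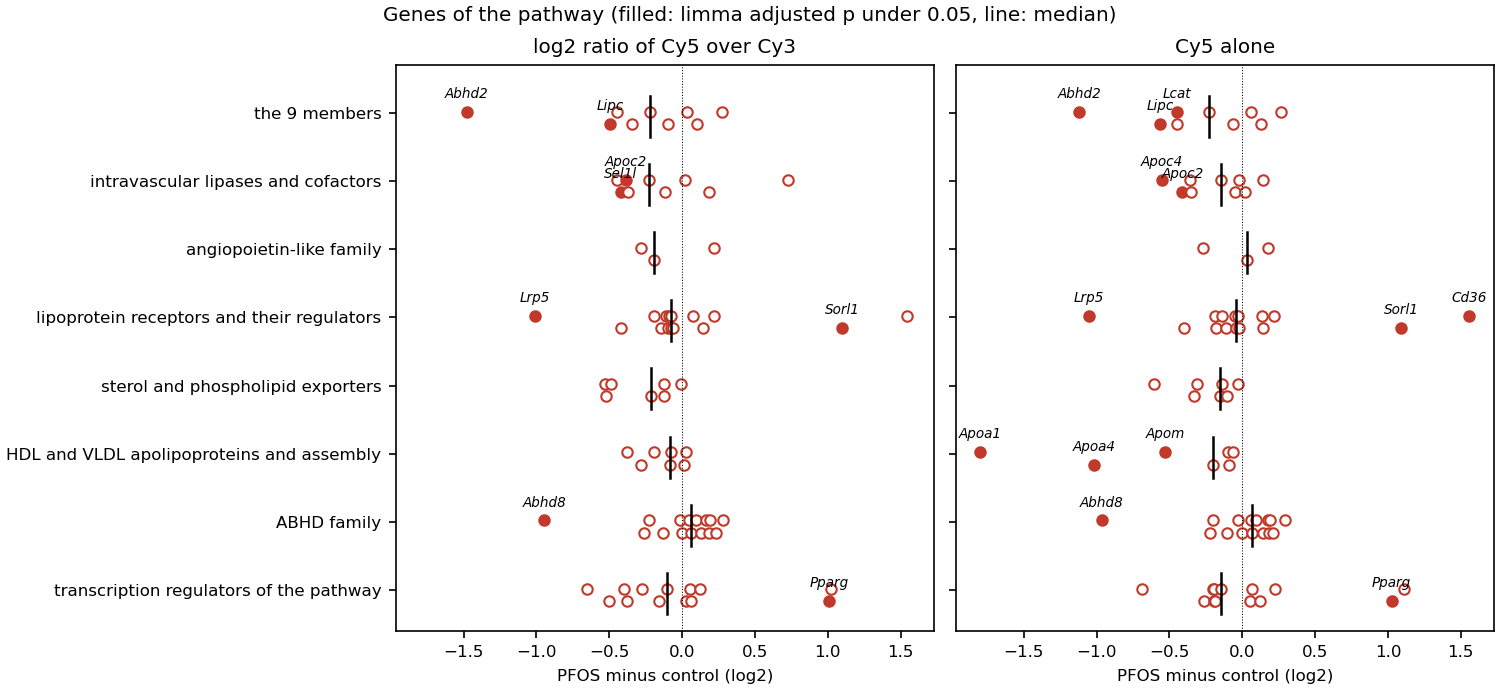
Log2 change, PFOS minus control, of the 9 genes and of the tested genes of each pathway list, in the ratio and in Cy5 alone; filled points have a limma adjusted p under 0.05 and are named, and the line is the list's median. The filled points are few in every list, and the apolipoproteins have 3 in Cy5 and none in the ratio.

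Of 13 tested transcription regulators known to act on these genes, 1 was higher and 12 did not pass in either measure. The higher one was Pparg, the receptor that drives fat cell genes, at 1.01 (SE 0.18, limma adjusted p = 0.0177). Its ratio call did not hold within each slide row (1.19 and 0.83), or where the slide column was fitted as a block. Foxa2 changed by -0.65 (SE 0.25, limma adjusted p = 0.188). As a gauge of the exposure, 9 of 15 PPARA targets were higher and 6 did not pass in either measure. Their median change was 0.49 in the ratio and 0.75 in Cy5, and 4 of the 15 lay below 0 in the ratio.

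The genes whose ratio followed Lipc most closely over the 8 arrays were Thyn1 (r = 0.98), Ngef (r = 0.971) and Clec2d2l2 (r = 0.965). For Abhd2 they were Aldh1l2, a mitochondrial folate enzyme (r = 0.989), C4h2orf42 (r = 0.983) and Mdh1, the cytosolic malate dehydrogenase (r = 0.981). These correlations include the difference between the diets. With each group's mean removed they were 0.892, 0.89 and 0.743 for Lipc and 0.856, 0.557 and 0.476 for Abhd2. The values share arrays and normalization, and these genes were picked as the highest of all tested genes with a symbol.

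In whole liver, fewer cells of a type and less RNA per cell cannot be told apart. Markers of several other cell types lay mostly below 0 in PFOS, as Lipc and Abhd2 did, though none passed the test in the ratio. The 6 tested markers of sinusoidal endothelium all lay below 0, with a median of -0.47 and summed Cy5 levels of 9470 to 16400 in the control against 7130 to 9990 in the PFOS livers. Of 11 macrophage markers 10 lay below 0, with a median of -0.15 and sums of 39200 to 64700 against 33200 to 54700. All 4 tested blood markers lay below 0, with a median of -0.41 and sums of 32800 to 60100 against 31500 to 38000. Stellate cell markers were below 0 for 7 of 10 (median -0.15, sums of 13300 to 16800 against 12900 to 14400), and the 4 cholangiocyte markers were above 0 (median 0.10, sums of 935 to 1160 against 1150 to 1380). The 8 hepatocyte markers had a median of -0.11 in the ratio, with 6 below 0, and sums of 1160000 to 1230000 against 1130000 to 1210000. Serpina1 among them was lower in Cy5 (-0.29, limma adjusted p = 0.0451). Tat had the largest change of the list and lay above 0 without passing (0.84 in the ratio, limma adjusted p = 0.108, and 0.96 in Cy5, 0.0747). In Cy5 Alb (0.06), Ttr (0.04) and Tf (0.01) also lay above 0, and the list's median was -0.04. The 2 tested fat markers had a median of -0.05, with sums of 4580 to 5950 against 3910 to 5190, and the 2 tested muscle markers a median of -0.05, with sums of 211 to 234 against 207 to 223. The part of cell makeup in the changes of Abhd2, Lipc and Lcat was not tested.

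**Figure D5:**
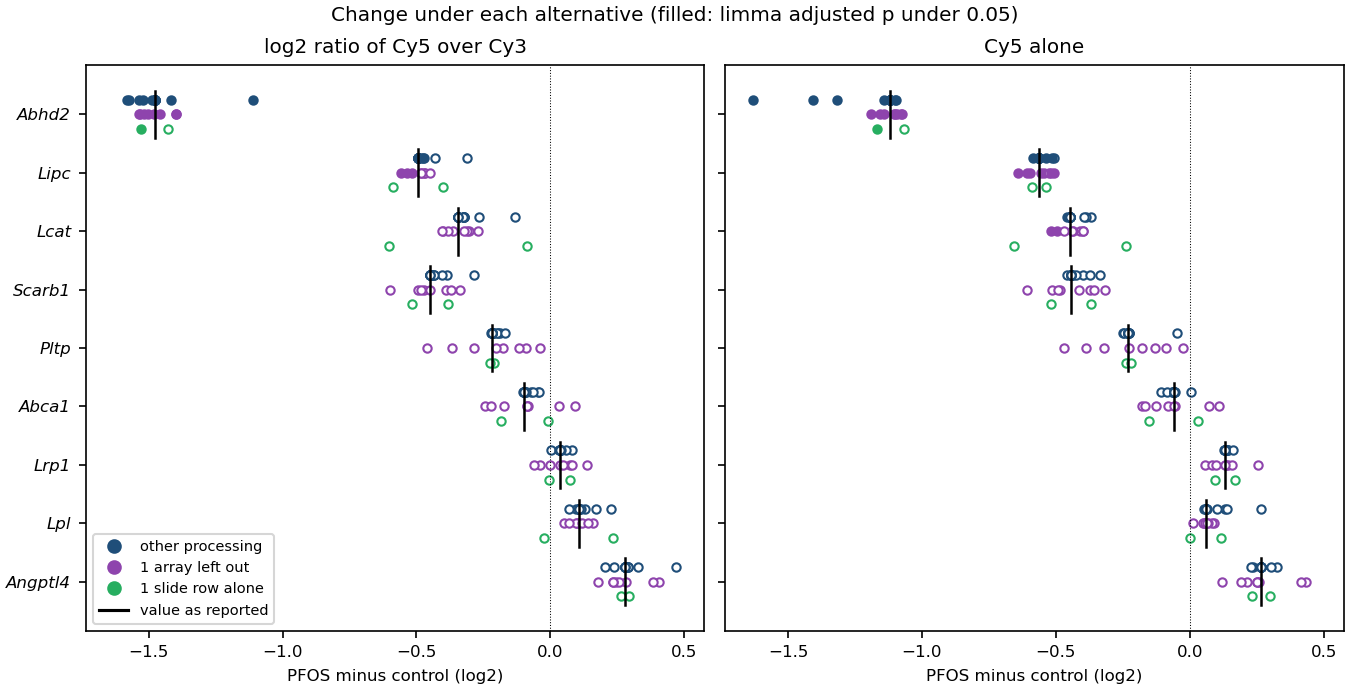
Log2 change of each of the 9 genes, in the ratio and in Cy5 alone, under every processing alternative, with each array left out and within each slide row; the black line is the value as reported and filled points have a limma adjusted p under 0.05. Abhd2 is filled everywhere but in the second slide row, Lipc is filled in part, and Lcat is filled only in Cy5 and only in part.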

How the data were processed

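Agilent SurePrint G3 two-colour arrays measured liver messenger RNA of 4 control and 4 PFOS rats. Groups come from the labels, which name separate animals; replicate numbers follow accession order and do not pair rats. As the labels give it, liver RNA carried Cy5 and a common reference Cy3 on every array, with no dye swap, so all ratios run 1 way. The deposited scanner files hold spot intensity values on a linear scale, and the submitters' processing notes name Agilent Feature Extraction 10.7.3.1. The authors' deposited value table holds log2 values, read as ratios because its columns correlated at 0.995 to 0.997 with the log2 ratio of the scanner signals. By array, control 1 to 4 first, the medians of these values were -0.048, -0.054, -0.052, -0.057, -0.052, -0.061, -0.061 and -0.053, and how they were centred is unknown.

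Median signals were corrected with normexp (offset 50), normalized by loess within arrays with control spots (4259 of 62976) at weight 0, and averaged per probe without spots marked as outliers (733 to 991 an array). For Cy5 and Cy3 alone, each channel was quantile normalized after normexp. A probe was kept where Cy5 was well above background on 4 or more arrays, and the brightest probe stood for a gene. Symbols came from RefSeq GRCr8; the array grid follows an older build, so coordinates are given for the RefSeq promoters only. Diets were compared with limma 3.58.1 in R 4.3.3 (data.table, version 1.17.8), two-sided, Benjamini-Hochberg over all features. The steps were tested on simulated data. Alternatives covered background, normalization, probe filter, model, slide row or column and each array left out.

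The members, gene lists and tests were chosen with earlier results of these data known. The rule for other named genes took up to 3 of each list with the smallest p in each measure, and for each member called in the ratio the 3 genes with the highest correlation. Results withheld for evaluation are not reported here.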

Additional observations from a re-analysis of the deposited data

Results flagged for a closer look

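Of 40 sets of 4 arrays examined for the 10 probes, over both diets, in the ratio and in Cy5, 2 held a value that stood apart from the other 3, where chance marks about 1 in 20. For Lipc, control 3 had a log2 ratio of 5.64, below the other control livers, and its gap to the nearest was 0.838 of the group's range, past Dixon's 95% limit for 4 values. Without control 3 the Lipc change was -0.56 and still passed (limma adjusted p = 0.0196). For Angptl4, PFOS 1 had a log2 ratio of 5.71, below the other PFOS livers, with a gap of 0.865 of the range. Without PFOS 1 the Angptl4 change was 0.38 and did not pass (limma adjusted p = 0.221).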

How the results depend on the processing

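The fall of Abhd2 kept its direction and call under all processing alternatives and with each array left out, in the ratio and in Cy5; it did not pass within the second slide row. The number of the 9 genes called in the ratio was 1 with processed signals, median centring or scaling between arrays, 1 to 2 with an array left out, and 1 and 0 within the first and second slide rows. In Cy5 it was 1 with processed signals, 1 to 3 with an array left out, and 1 and 0 within the rows. Counts over all features moved more. In the ratio 239 passed with median centring, 268 with slide column as a block, 350 to 519 with an array left out (387 or fewer without control 1, 2 or 3 or PFOS 1, 2 or 3), and 93 and 32 within the rows. In Cy5 413 passed with scaling to the 75th percentile, 456 with slide column as a block, 409 (without PFOS 1) to 698 with an array left out, and 111 and 28 within the rows. Signs turned in the ratio for Lpl in the first row (-0.0223), Lrp1 in the second row (-0.006), without control 2 (-0.04) and without PFOS 2 (-0.062), and Abca1 without control 1 (0.03) and without PFOS 3 (0.091). In Cy5 Abca1 turned with array weights (0.0043), in the first row (0.0306), without control 1 (0.07) and without PFOS 3 (0.11). With arrays left out, the ratio changes ran from -0.06 to 0.14 for Lrp1 and from -0.25 to 0.09 for Abca1, and the Cy5 change of Abca1 from -0.18 to 0.11. The cause was not tested. The slide rows taken alone were planned with the other alternatives. No paired analysis was possible because the labels give each rat an animal number and no number shared across the diets. Signal over background limits what can be said of Lpl, which no longer enters the test when a probe must be above background on all 8 arrays.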
